A study of Drosophila melanogaster with 36 samples.

Results

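The fat body of per0 larvae was compared between the subjective night and the subjective days before and after it. The fat body is the insect organ that stores triglyceride and glycogen, makes most proteins of the hemolymph and mounts the humoral immune response. The night group held the libraries of CT12, CT16 and CT20, 6 in all. The day group held those of CT0, CT4, CT8, CT24, CT28 and CT32, 11 in all, after 1 library of CT28 was left out. These 17 libraries, out of 36 in the series, were chosen by genotype and time, and the omitted one was set aside for the foreign RNA described below. CT is circadian time, which counts hours in constant conditions from subjective dawn, so CT12 stands at subjective dusk and CT24 at the next dawn.

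All larvae were Drosophila melanogaster of the third instar, entrained in a light-dark cycle with 12 h of each and sampled in constant darkness every 4 h. They are described as male and female together, but 5 of the 17 libraries held little of the male RNA roX1, as given below. The per0 larvae carry the per0 allele of period and so have no functional period protein. The other genotype of the series, w1118, has a functional period gene and was used only where the same comparison was made in it. Each library was made from the total RNA of whole fat bodies of 5 larvae, so it averages over animals and cells. In such bulk RNA, fewer cells of a type and less RNA per cell cannot be told apart. The labels do not give the age of the larvae at each time, and larvae sampled late in the series may be older.

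In the Drosophila clock, Clock and cycle activate period and timeless, whose products enter the nucleus at night and shut off their own transcription. vrille, Pdp1 and clockwork orange form further loops, and kinases such as doubletime set the speed. In flies without period protein this loop does not run. Fat body metabolism turns with feeding: sugar goes into glycogen and triglyceride in the fed state, and lipid is released and oxidized in the fasted state. Late in the third instar the fat body also turns to the mass synthesis of larval serum proteins, which are stored for metamorphosis, and ecdysone then prepares it for pupariation.

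The libraries held 16513757 to 28423768 counted reads. A count of 3 reads, taken here as the detection floor, stood at 0.0924 to 0.208 CPM, the reads of a gene scaled to a common library total. All CPM values below were scaled by trimmed mean of M values (TMM), which corrects for a few genes that take up much of a library. The period transcript did not check the genotype label: it was at 0 to 0.252 CPM in the night libraries, at 0 to 0.657 CPM in the day libraries and at 0 to 1.10 CPM in the 18 w1118 libraries. The omitted CT28 library carried RNA that the other per0 libraries lacked. nAChRalpha7, a nicotinic acetylcholine receptor subunit, stood at 14.8 CPM in it, against at most 1.0 CPM in the other 17 and a median of 35.0 CPM in w1118.

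RNA of other tissues and of males varied among the 17 libraries, and it did so across the groups. The markers of the midgut summed to 8.89, 1587 and 6271 CPM in the night libraries (lowest, median and highest), to 30.7, 644 and 26650 CPM in the first day and to 28.1, 10573, 34.4, 17.9 and 19.1 CPM in the second day. The 7 libraries above 1000 CPM all carry the column letter B, and 3 of them are night libraries. roX1, the noncoding RNA that coats the single X chromosome of males, was at 0.501 to 2.36 CPM in 5 libraries (both of CT20, CT24 B, CT28 A and CT32 A) and far above that in the others. On the first day it was at 86.3 CPM or more in every library. A difference in male RNA therefore cannot be fully told apart from the night in the contrast with the first day. Muscle markers summed to 477, 961 and 2646 CPM at night and to 957, 2702 and 6443 CPM on the first day. Fat body markers were abundant in every library, at 29305 to 406610 CPM in sum, so RNA of the labelled tissue was present throughout. In the comparison of the night with both days, 3 of 13 midgut markers were lower at an unadjusted p under 0.05 and 0 higher (list median -1.77). Of 20 testis markers 3 were higher and 0 lower (1.39), 1 of 13 hemocyte markers was lower (-0.28), and 0 of 16 muscle markers passed (-0.83). Over all genes tested, 5.28% were higher and 3.98% lower at that p. The sign of the midgut list depended on the libraries. With only those that held roX1 RNA (4 night and 8 day), 12 of 17 midgut markers were positive, with a median of 1.81. In that fit 0 of the 17 were higher and 1 lower at that p, against 291 and 419 of 9584 genes. The part of foreign RNA in each result was not tested, but the counts of called genes and of the main lists were also taken without the libraries in doubt.

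**Figure D1:**
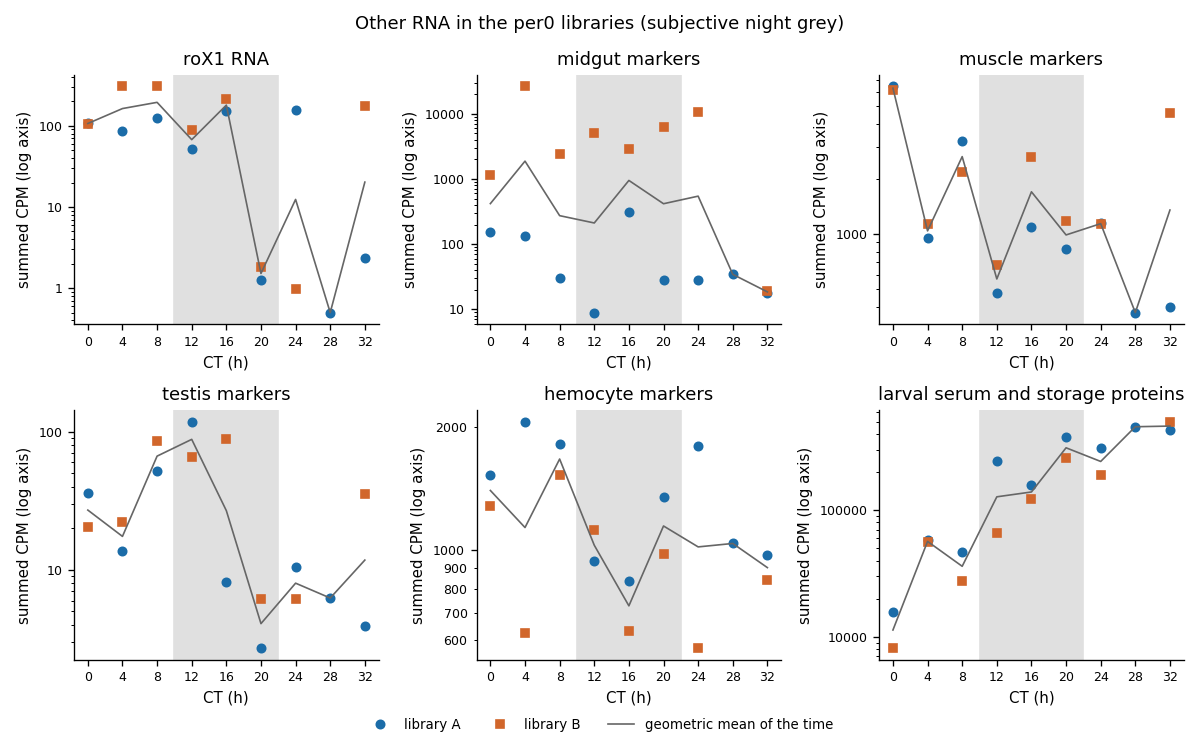
Summed CPM (log axes) of roX1 and of 5 marker lists in each per0 library against CT in hours. Circles are libraries with the column letter A and squares those with B, lines join geometric means, and the night is grey. Midgut RNA sits high in 7 libraries of letter B, roX1 is near the floor in 5 libraries from CT20 on, and storage protein RNA is lower in every library of the first day than in any later one.

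No gene passed the test of the subjective night against both flanking days at once. Of 8917 genes tested, 0 (0%) had an adjusted p under 0.05, and the smallest adjusted p was 0.254 (edgeR quasi-likelihood F test with a linear term for time, Benjamini-Hochberg adjustment). At an unadjusted p under 0.05, 826 genes differed: 471 were higher at night (5.28% of the genes tested) and 355 were lower (3.98%). Values of single genes in this comparison are therefore given as levels and differences, none of which passed. limma voom called 0 genes and DESeq2 64. The night times lie in the middle of the series, so a change that runs steadily from CT0 to CT32 cancels out of this comparison, whereas one that bends cannot be told apart from a difference at night.

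The genes with the smallest p that were higher at night are given first, and none passed. Acer, an enzyme related to angiotensin-converting enzyme that has been linked to night sleep in adult flies, was at 195, 265 and 386 CPM at night (lowest, median and highest of 6) and at 96.7, 174 and 242 CPM by day (of 11). CT16 B fell among the highest day libraries and CT12 A lay level with the highest of them, while the other night libraries lay above. Its log2 difference was 0.75 ± 0.16 (SE), 1.68-fold, with an adjusted p of 0.359. genderblind (gb), a subunit of an amino acid exchanger in the plasma membrane, was at 17.9, 48.9 and 76.5 CPM at night and at 8.59, 20.5 and 28.8 CPM by day. All 4 libraries of CT12 and CT20 lay above every day library, and both libraries of CT16 lay among them. The log2 difference was 1.19 ± 0.28 (adjusted p = 0.359).

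Hayan, a serine protease that starts the melanization cascade in the hemolymph, was at 40.1, 52.8 and 68.5 CPM at night and at 24.7, 37.9 and 58.3 CPM by day, a log2 difference of 0.49 ± 0.11. Every night library lay above every library of the first day, whereas the second day overlapped the night. necrotic (nec), a serpin that restrains the protease cascade upstream of Toll, was at 146, 187 and 302 CPM at night and at 98.0, 123 and 218 CPM by day, a log2 difference of 0.64 ± 0.15. Its night values also cleared the whole first day and overlapped the second. spatzle (spz), the Toll ligand, was at 49.7, 73.4 and 89 CPM at night and at 28.3, 52.8 and 62.6 CPM by day, a log2 difference of 0.54 ± 0.15 (adjusted p = 0.406). Of the 18 antimicrobial and immune genes tested, 3 were higher at an unadjusted p under 0.05 (nec, spz and PGRP-SA), against 5.28% of all genes, and 0 lower, with a list median of 0.23. With only the 12 libraries that held roX1 RNA (roX1-positive) 2 of 20 were higher and 1 lower (median 0.09). Over all 9584 genes of that fit, 291 were higher and 419 lower. Without the 7 libraries high in midgut RNA (midgut-high) 3 of 19 were higher and 2 lower (median 0.02). Over all 9194 genes of that fit, 304 were higher and 835 lower.

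SPARC, a secreted glycoprotein that binds collagen IV and is needed for its assembly in basement membranes, was at 2653, 3569 and 4900 CPM at night and at 1446, 2496 and 3322 CPM by day, a log2 difference of 0.67 ± 0.16 (adjusted p = 0.359). The lowest day libraries were those of CT28 and CT32, and the overlap with the night was mostly with the first day. fat-spondin, a secreted matrix protein of the fat body, was at 544, 757 and 1111 CPM at night and at 460, 536 and 745 CPM by day, a log2 difference of 0.53 ± 0.13 (adjusted p = 0.359). The larval fat body is the main source of collagen IV for the tissues of the larva. Its 2 chains followed SPARC: Col4a1 was at 7060, 7753 and 12928 CPM at night and at 3723, 6837 and 8400 CPM by day, and vkg at 3254, 3569 and 6265 CPM against 1596, 3250 and 4182 CPM. Their log2 differences were 0.48 ± 0.17 and 0.45 ± 0.17, with unadjusted p of 0.0108 and 0.0180. Of 10 basement membrane genes tested, 4 were higher at an unadjusted p under 0.05 (these 3 and the perlecan gene trol), against 5.28% of all genes, and 0 lower. The list median was 0.22, against 0.02 over all genes tested. Without the midgut-high libraries 1 of the 10 was higher at that p, against 304 of all 9194 genes of that fit, with a median of 0.27.

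CARPB, a gene of the carbonic anhydrase-related family, had the largest change for its error among genes of at least 10 CPM. It was at 0.646, 2.33 and 5.88 CPM on the first day, at 23.1, 55.8 and 154 CPM at night, and at 66.1, 20.4, 113, 262 and 316 CPM on the second day (CT24 A, CT24 B, CT28 A, CT32 A and CT32 B). The night thus stood above the whole first day and mostly below the second. The log2 difference of 2.03 ± 0.38 (adjusted p = 0.254) is the height of the night above a straight line through both days on the log scale, and it was -0.09 without the linear term. Cyp6d2, a cytochrome P450, was also low on the first day, at 0.517 to 2.80 CPM, against 4.75 to 154 CPM at night. Its second day, at 11 to 76.5 CPM, lay within the range of the night. Its log2 difference was 3.04 ± 0.75 (adjusted p = 0.359).

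curled (cu), the fly homologue of the deadenylase Nocturnin, was at 62.1, 79.6 and 150 CPM at night and at 36.7, 49.5 and 70.4 CPM by day, a log2 difference of 0.76 ± 0.18 (adjusted p = 0.359). All night libraries lay above the median of the day libraries, and CT20 B lay far above the rest. jdp, which encodes a J-domain protein, was at 18.9, 25.7 and 37.4 CPM at night against 8.08, 9.10 and 11.9 CPM on the first day and 8.08 to 48.6 CPM over both days. Its log2 difference was 0.69 ± 0.17 (adjusted p = 0.359).

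**Figure D2:**
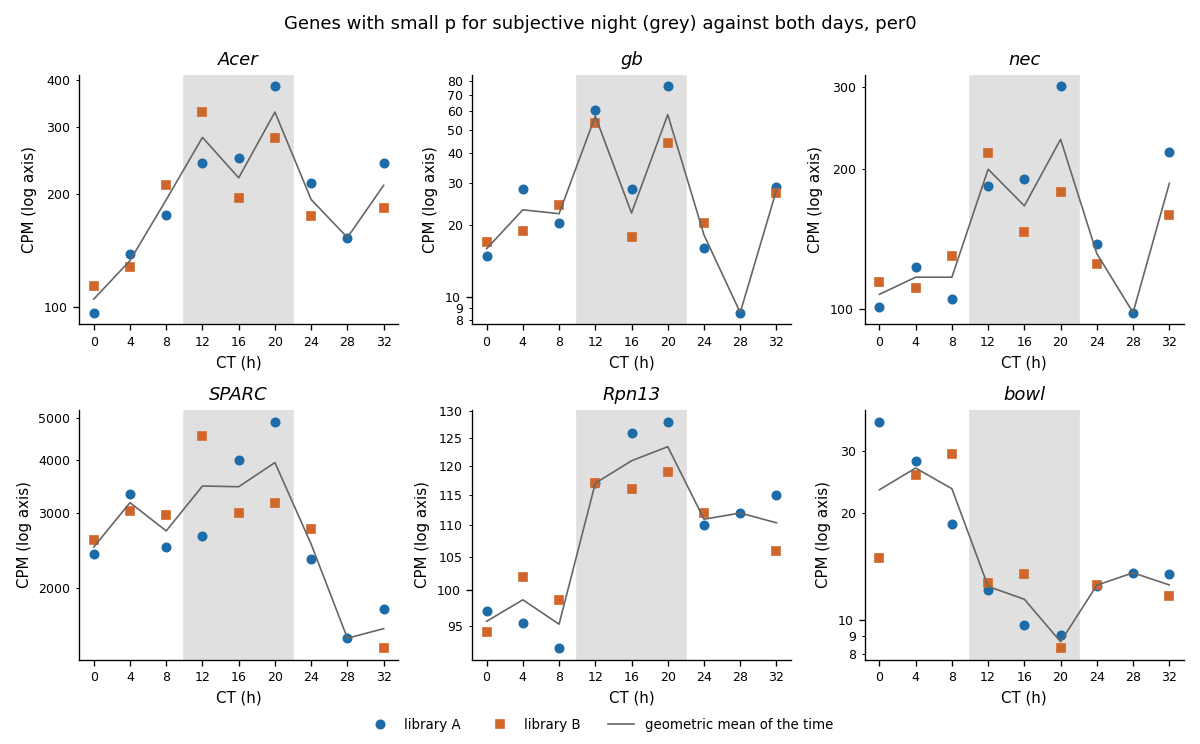
CPM (log axes) of 6 genes in each per0 library against CT in hours, with the night in grey, circles and squares for the libraries of letters A and B, and lines through the geometric means. gb and nec are high at CT12 and CT20 and lower at CT16, and Acer has its lowest night value in CT16 B. The night libraries of Rpn13 lie at 116 to 128 CPM above all day libraries, and bowl is low from CT12 on.

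Of the genes lower at night, those with the smallest p also did not pass. bowl, a zinc finger factor of the odd-skipped family, was at 8.33, 11 and 13.5 CPM at night, at 15, 26.9 and 36.3 CPM on the first day and at 11.7 to 13.6 CPM on the second. The night cleared the first day and overlapped the second, and the log2 difference was -0.74 ± 0.16 (adjusted p = 0.359). Sur-8, a scaffold of Ras and Raf signalling, was at 13.7, 15.4 and 19.8 CPM at night and at 17, 22.8 and 33.1 CPM by day, a log2 difference of -0.52 ± 0.12. egh, which makes a mannosyl step of glycosphingolipid synthesis, was at 5.75, 9.15 and 12.9 CPM against 10.7, 15 and 18.3 CPM, a log2 difference of -0.64 ± 0.16. In both genes only the highest night libraries reached into the day range.

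emc, an inhibitor of basic helix-loop-helix factors, was at 13.6, 16.8 and 20.8 CPM at night and at 16.5, 24.8 and 37.2 CPM by day, a log2 difference of -0.58 ± 0.15 (adjusted p = 0.359). Here the second day stood furthest from the night, with a log2 difference of -0.77 ± 0.19 against -0.39 ± 0.18 from the first. Decay, an effector caspase, was at 2.34, 7.77 and 23.1 CPM at night and at 8.96, 24.2 and 52.7 CPM by day, a log2 difference of -1.66 ± 0.45 (adjusted p = 0.375). AOX3, an aldehyde oxidase, was at 38.3, 48.2 and 55.2 CPM against 43.0, 65.9 and 93.2 CPM, a log2 difference of -0.46 ± 0.13. Others of the 10 with the smallest p in this direction were Abp1, an actin-binding protein, and CG17109 and CG2938, with log2 differences of -0.37 to -0.82. The cuticle protein Lcp65Ac, whose mean lay under 10 CPM, was at 0.186 to 0.731 CPM at night and at 1.41 to 33.8 CPM on the first day. Its log2 difference from both days was -3.48 ± 0.64 (adjusted p = 0.254). The cuticle and epidermis list, which holds Lcp65Ac, summed to 20.7, 66.3 and 366 CPM at night. It summed to 106, 196 and 698 CPM on the first day and to 32.2, 80.0 and 379 CPM on the second. Of its 10 genes tested, 1 (Lcp65Ac) was lower at an unadjusted p under 0.05, against 3.98% of all genes.

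In 1 gene (0.0112% of 8917) every night library lay above every day library, and in 0 genes (0%) did every night library lie below. That gene was Rpn13, the ubiquitin receptor of the proteasome cap. It was at 116, 118 and 128 CPM at night and at 91.9, 102 and 115 CPM by day, with CT32 A closest to the night. The difference was small, 0.22 ± 0.06 on the log2 scale (adjusted p = 0.375). All 31 proteasome genes tested had a positive log2 difference, with a median of 0.16, but only Rpn13 had an unadjusted p under 0.05. Without TMM scaling 27 of the 31 were positive, and the median of all genes then moved from 0.02 to -0.09. With only the 12 libraries that contain roX1 RNA, 21 of the 31 were higher at that p, with a median of 0.30, in a fit where 291 of 9584 genes (3.04%) were higher. This count therefore rests on which libraries enter.

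No gene of the metabolic lists passed, and the lists are given by their counts and medians. Of 22 genes listed for fatty acid oxidation, 6 were higher at an unadjusted p under 0.05 and 0 lower, against the 5.28% of all genes higher. The list median was 0.29. Acox57D-d, an acyl-CoA oxidase of peroxisomes, was at 149, 261 and 349 CPM at night and at 98.0, 143 and 281 CPM by day, a log2 difference of 0.69 ± 0.22. Acadvl, the dehydrogenase of very long chain acyl-CoA, was at 628, 822 and 1163 CPM against 408, 598 and 899 CPM, a log2 difference of 0.52 ± 0.17. Both adjusted p were 0.471, and the night and day ranges overlapped in both genes. Etf-QO and wal, which pass electrons from acyl-CoA dehydrogenases to the respiratory chain, had log2 differences of 0.52 ± 0.19 and 0.39 ± 0.17. With only the roX1-positive libraries 2 of the 22 were higher at an unadjusted p under 0.05, against 291 of all 9584 genes, and the median was 0.14. Without the midgut-high libraries 3 were higher and 1 lower, against 304 and 835 of all 9194 genes, with a median of 0.47.

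In the list on glycogen, trehalose and sugar transport, 3 of 9 genes were higher and 1 lower at an unadjusted p under 0.05. Over all genes tested these shares were 5.28% and 3.98%. AGBE, the glycogen branching enzyme, was at 442, 736 and 1001 CPM at night and at 322, 407 and 747 CPM by day, a log2 difference of 0.67 ± 0.20 (adjusted p = 0.455). Glys, glycogen synthase, had a log2 difference of 0.50 ± 0.22, and UGP, which makes UDP-glucose, one of 0.23 ± 0.11. Treh, which splits trehalose, was the lower one, at -0.39 ± 0.18. Without the midgut-high libraries 0 of 8 genes of this list passed that p, against 304 of all 9194 genes higher and 835 lower. In glycolysis 15 of 17 genes had positive values with a median of 0.25, and Pglym78, phosphoglycerate mutase, alone had an unadjusted p under 0.05 (log2 difference 0.38 ± 0.14).

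Among genes of triglyceride synthesis and the lipid droplet, 2 of 17 were higher and 1 lower at an unadjusted p under 0.05. Over all genes tested, 5.28% were higher and 3.98% lower at that p. Jabba, a protein that anchors histones to lipid droplets, was at 912, 1561 and 2681 CPM at night and at 460, 640 and 1788 CPM by day, a log2 difference of 0.84 ± 0.33. The perilipin Lsd-2 had a log2 difference of 0.53 ± 0.25. The smallest adjusted p of this list, 0.484, belonged to the 1 lower gene. AkhR, the receptor of the fat-mobilizing adipokinetic hormone, had a log2 difference of 0.75 ± 0.33. It is of the list on lipases, where 1 of 9 genes was higher and 1 lower at an unadjusted p under 0.05. The lower one was CG6295, which is also on the midgut list, at -7.89. Jabba, Lsd-2 and AkhR had adjusted p between 0.487 and 0.529, and their night and day ranges overlapped. Of 16 genes of fatty acid synthesis 0 passed the unadjusted threshold in either direction; the delta-9 desaturase Desat1 came to 0.54 ± 0.28. Of 14 lipophorin and lipid transport genes 1 was higher (Npc2a, a sterol carrier) and 1 lower (LpR2, a lipophorin receptor).

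CCHa2, a peptide hormone that the fed fat body sends to the insulin-producing cells, was at 113, 159 and 296 CPM at night and at 85.7, 113 and 211 CPM by day, a log2 difference of 0.61 ± 0.23 (adjusted p = 0.487). It was the only 1 of 19 genes of the insulin, TOR and FOXO list with an unadjusted p under 0.05, and its value was -0.00 with only the roX1-positive libraries. Xbp1 and Herp of the unfolded protein response had log2 differences of 0.26 ± 0.09 and 0.49 ± 0.18, 2 of 25 genes of that list. ref(2)P, the autophagy receptor homologous to p62, came to 0.48 ± 0.17, and with Atg8b made 2 of 20 autophagy genes. Of 22 genes on amino acid metabolism 2 were higher (Cbs and Glys) and 1 lower (Gnmt), and of 24 detoxification genes 2 were higher and 3 lower. These counts stand beside 5.28% of all genes higher and 3.98% lower at the same unadjusted p. Medians depended on the libraries used: with only the roX1-positive ones that of fatty acid synthesis went from 0.13 to -0.08, that of the citric acid cycle from 0.09 to -0.11, that of amino acid metabolism from 0.09 to -0.15 and that of the insulin list from 0.21 to -0.09. Without TMM scaling the citric acid cycle median was -0.05. The median of the lipophorin list was -0.22 with all 17 libraries.

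The genes of translation and respiration had values close to each other and close to 0. Of 80 cytosolic ribosomal protein genes 79 were positive with a median of 0.13, and of 48 respiratory chain genes 47 were positive with a median of 0.13. In both lists 0 genes had an unadjusted p under 0.05. Without TMM scaling 38 of the 80 and 24 of the 48 were positive, so the direction of both lists depended on the scaling. Ribosome biogenesis (33 genes), translation initiation (29), aminoacyl tRNA synthetases (20), the citric acid cycle (16) and DNA replication (23) also had 0 genes at that p in either direction, with medians of -0.07 to 0.09.

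**Figure D3:**
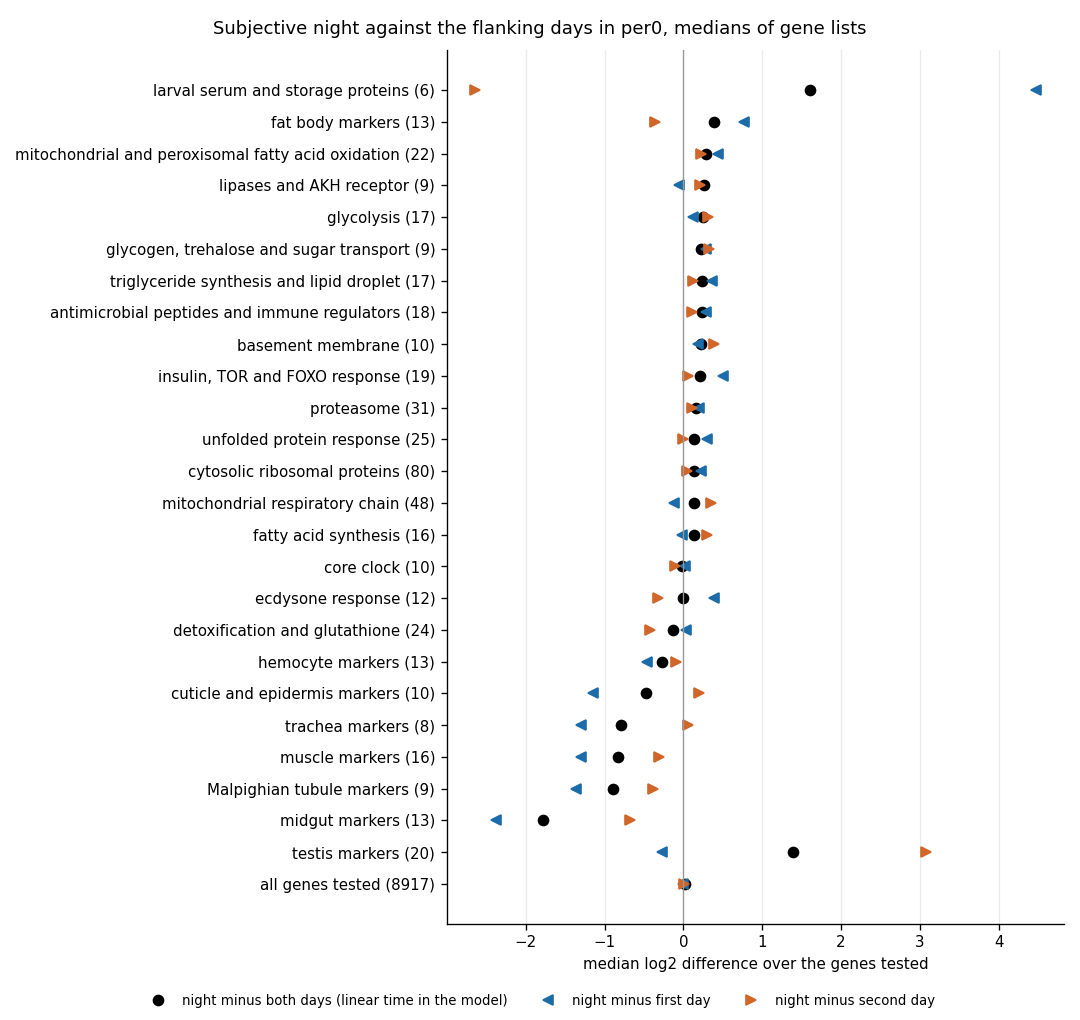
Median log2 difference of each gene list (number of genes tested in brackets). Circles give the night minus both days with linear time in the model, left-pointing triangles the night minus the first day and right-pointing triangles the night minus the second. Storage protein genes lie at 4.47 against the first day and at -2.64 against the second, and the median of all 8917 genes is 0.02 for both days.

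The clock genes did not separate the night from the days. Of 13 clock genes matched 10 were tested, and 0 had an unadjusted p under 0.05. timeless (tim), the partner of period, was at 0.214, 0.867 and 2.04 CPM at night and at 0.128, 0.491 and 9.58 CPM by day, a log2 difference of -0.13 ± 0.73. vrille (vri), a repressor of Clock, was at 1.37, 3.33 and 8.21 CPM against 2.39, 5.26 and 14.3 CPM, a log2 difference of -0.59 ± 0.36. cycle (cyc), the partner of Clock, was at 0.233, 0.830 and 1.53 CPM against 0.360, 1.32 and 3.12 CPM, a log2 difference of -0.83 ± 0.46. All 3 genes were of low abundance, and their errors were wide.

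The more abundant clock genes had narrower errors. Pdp1, an activator of Clock, was at 46.8, 88.6 and 149 CPM at night and at 42.9, 82.4 and 131 CPM by day, a log2 difference of 0.12 ± 0.25. clockwork orange (cwo), a transcriptional repressor of the loop, was at 24.6, 28.4 and 40.1 CPM against 19.6, 26.4 and 46.3 CPM, a log2 difference of 0.08 ± 0.12. jet, an F-box protein of light resetting, came to -0.12 ± 0.12. The kinase genes dco, sgg, CkIIalpha and CkIIbeta lay between -0.05 and 0.02. Of 8 genes that other work reported as clock outputs in other tissues, 2 were lower at an unadjusted p under 0.05, against 3.98% of all genes. These were Cyp6a21, a P450 gene at 0.83 to 3.04 CPM at night and 2.04 to 21.7 CPM by day, and speck, at 10.1 to 14.5 CPM at night and 9.51 to 38.2 CPM by day.

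The comparison was then split into the night against each flanking day, in 1 model with the first day, the night and the second day as levels. Both contrasts use the same 6 night libraries. Against the first day 184 genes changed at an adjusted p under 0.05: 138 rose (1.55% of 8917) and 46 fell (0.516%). Storage proteins of the hemolymph were among the genes that rose. Lsp2, a hexamerin of the hemolymph, was at 0, 0.304 and 1.78 CPM on the first day and at 0.146, 44.2 and 405 CPM at night, and it rose by 8.06 ± 1.70 on the log2 scale (adjusted p = 0.0303). Lsp1gamma was at 957, 3678 and 10383 CPM on the first day and at 7853, 65082 and 172380 CPM at night, and it rose by 3.87 ± 0.78 (adjusted p = 0.0303). Lsp1beta was at 6585, 33783 and 47390 CPM and then at 57614, 128230 and 174840 CPM, and it rose by 2.04 ± 0.43 (adjusted p = 0.0304). Lsp1beta cleared the first day in every night library, whereas 1 night library, CT12 B, stayed within the range of the first day for Lsp1gamma and Lsp2.

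Together the larval serum protein genes took 1.03, 4.79 and 6.23% of all counts on the first day and 7.07, 18.6 and 25.8% at night. On the second day they took 19.3 to 34.3%. Of 6 storage protein genes tested, 3 rose against the first day and 0 fell, with a median of 4.47, and the median against the second day was -2.64. Lsp1alpha came to 5.07 ± 1.28 with an adjusted p of 0.0505, and Fbp2, a fat body protein of the alcohol dehydrogenase family, to 8.5 ± 2.23 with an adjusted p of 0.0552. The storage genes thus lay between both days at night, and their log2 differences from both days at once, 1.57 ± 0.59 for Lsp1gamma and 0.71 ± 0.29 for Lsp1beta, did not pass.

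**Figure D4:**
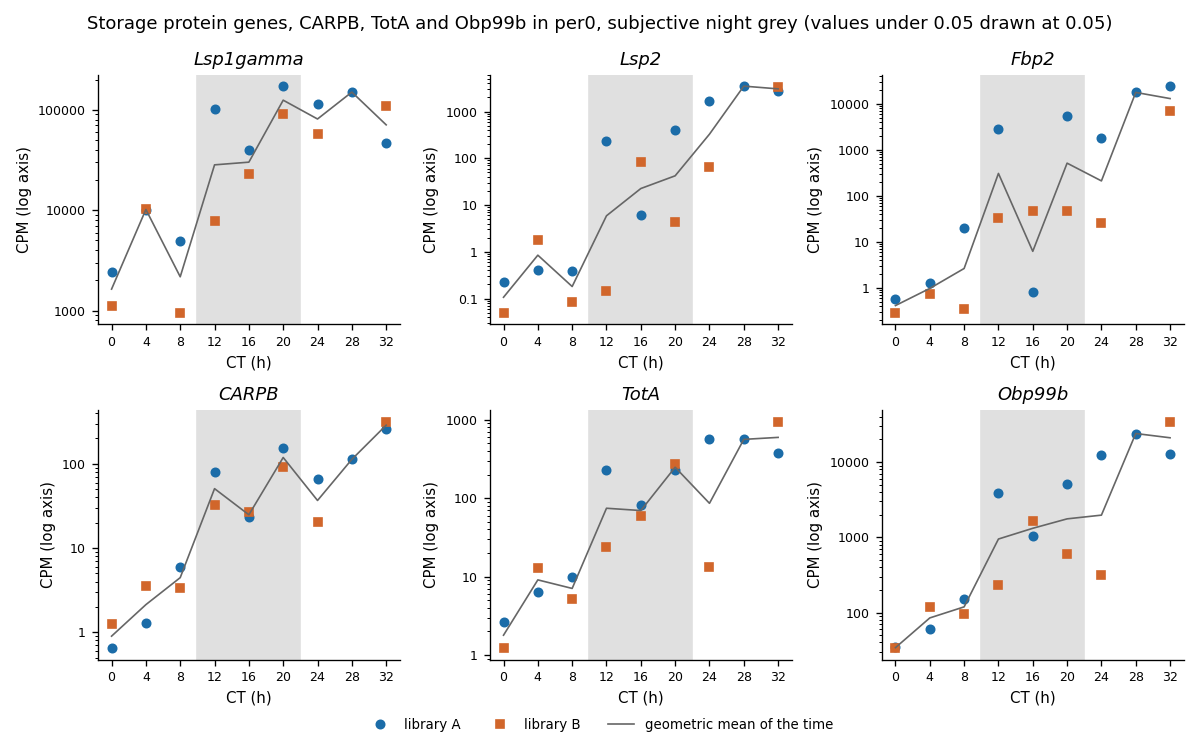
CPM (log axes) of Lsp1gamma, Lsp2, Fbp2, CARPB, TotA and Obp99b in each per0 library against CT in hours, with the night in grey and values under 0.05 drawn at 0.05. Circles and squares are libraries of letters A and B, and lines join geometric means. All 6 genes are low on the first day and high from CT28 on, and at night some duplicates lie more than an order of magnitude apart.

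Obp99b, an odorant-binding protein family member that the fat body secretes, was at 33.5, 77.6 and 149 CPM on the first day and at 232, 1355 and 5154 CPM at night, and it rose by 4.68 ± 0.93 (adjusted p = 0.0289). TotA, a stress-induced humoral peptide, was at 1.22, 5.75 and 12.9 CPM and then at 24, 153 and 271 CPM, and it rose by 4.55 ± 0.86 (adjusted p = 0.0259). In both genes every night library lay above every library of the first day. The maltase gene Mal-A5 rose by 5.00 ± 1.17, Cyp6d2 by 4.86 ± 0.90 and CARPB by 4.67 ± 0.77, the last with an adjusted p of 0.0184. CG14400, CG3597 and CG43085 completed the 10 largest rises, at 3.93 to 5.07.

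Other genes rose by less. apolpp, the precursor of the apolipoproteins of lipophorin, was at 6019, 9344 and 10956 CPM on the first day and at 9904, 15652 and 21365 CPM at night, and it rose by 0.77 ± 0.19 (adjusted p = 0.0488). Acer rose by 0.96 ± 0.20, Hayan by 0.80 ± 0.14, nec by 0.83 ± 0.19, fat-spondin by 0.64 ± 0.16 and Rpn13 by 0.32 ± 0.07, with adjusted p of 0.0224 to 0.0461. dsx, the sex determination factor, was at 3.72, 4.40 and 8.47 CPM and then at 9.12, 12.1 and 13.9 CPM, and it rose by 1.11 ± 0.21 (adjusted p = 0.0272). AspRS, the aspartyl tRNA synthetase, rose by 0.64 ± 0.14 (adjusted p = 0.0354). No fatty acid oxidation gene passed: 0 of 22 rose or fell against the first day, although the list median was 0.43.

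The largest falls against the first day were in genes with little or no RNA at night. Peritrophin-15a, which encodes a protein of the gut's peritrophic matrix, was at 0.535, 2.75 and 1090 CPM on the first day and at 0, 0.401 and 1.45 CPM at night, and it fell by 8.58 on the log2 scale (SE 2.10, adjusted p = 0.0456). CT4 B, the library with the most midgut RNA, stood far above the others. CG7715, CG14569, CG31343, CG32266 and CG13047 also fell, with log2 differences of -8.11 to -4.85 and night values of at most 5.00 CPM. Mmp1, a matrix metalloproteinase, was at 12.4, 40.2 and 65.8 CPM on the first day and at 1.91, 4.96 and 12.1 CPM at night. It fell by 2.75 (SE 0.53, adjusted p = 0.0259) with no overlap between the groups. GstD2, a glutathione transferase, was at 42.3, 127 and 289 CPM and then at 1.70, 10.6 and 45.1 CPM, and it fell by 3.16 (SE 0.77, adjusted p = 0.0456). Beside these falls stand the muscle, trachea and Malpighian tubule markers, whose list medians against the first day were -1.29, -1.30 and -1.36 with 0 members called, and the midgut list, at -2.37 with 2 of 13 called.

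Other genes fell by less. LpR2, a lipophorin receptor that takes up lipid, was at 10.3, 15.4 and 18.7 CPM on the first day and at 4.95, 5.91 and 6.97 CPM at night, and it fell by 1.33 (SE 0.27, adjusted p = 0.0303). Gnmt, glycine N-methyltransferase, which disposes of methyl groups in the fat body, was at 661, 855 and 1250 CPM and then at 394, 497 and 600 CPM, and it fell by 0.89 (SE 0.20, adjusted p = 0.0354). bowl fell by 1.22 (SE 0.19, adjusted p = 0.0145). CG9119 fell by 1.60 and CG17260 by 1.68. The night libraries of LpR2 and Gnmt all lay below those of the first day. How many of all genes cleared the first day in this way was not counted, so such gaps are a description only.

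The number of genes changed against the first day rested on single libraries. It was 3 without CT0 A, 4 without CT0 B, 9 without CT12 A, 10 without CT16 A and 10 without CT20 A. Without CT4 A it was 65, without CT4 B 80, without CT8 A 107, without CT8 B 84, without CT12 B 85 and without CT20 B 45. It came to 97 without CT24 A, 99 without CT28 A and 101 without CT32 A, and it went up to 451 without CT16 B and to 301 without CT24 B. Without the midgut-high libraries it was 67. With only the roX1-positive libraries (8 day and 4 night) it was 0.

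Against the second day 1 gene changed (0.0112% of 8917). CG32407 was at 2.10, 2.66 and 7.78 CPM at night and at 33.9, 53.9, 49.1, 8.42 and 56.0 CPM on the second day (CT24 A, CT24 B, CT28 A, CT32 A and CT32 B), and at night it was lower by a log2 difference of -3.54 ± 0.48 (adjusted p = 0.0136). At an unadjusted p under 0.05, 1300 genes differed. CT24 B stood apart from the other second-day libraries in its storage and ecdysone-responsive RNA and in its midgut RNA. Lsp2 was at 63.8 CPM in it, against 1680, 3490, 2780 and 3340 CPM in CT24 A, CT28 A, CT32 A and CT32 B. Eip74EF was at 14.3 CPM in it, against 34.9, 49.6, 45.3 and 81.7 CPM.

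Without CT24 B, chosen after its values were seen, 116 genes differed between the night and the second day: 50 were higher at night (0.56% of 8931) and 66 lower (0.739%). The omission is singled out because CT24 B stood apart in these genes, so the calls are conditioned on those values, are given as a description and are no independent support. Among the lower ones were 3 genes of the list on ecdysone, the steroid that starts metamorphosis, of which 12 were tested and 0 called with all libraries. broad (br), an early ecdysone gene, was at 9.54, 12.0 and 18.4 CPM at night and at 53.3, 33.5, 44.8 and 80.6 CPM in those 4 day libraries, a log2 difference of -2.08 at night (adjusted p = 0.00527). Eip74EF, another early gene, came to -2.32 (adjusted p = 0.00675). EcR, the ecdysone receptor, was at 12.5, 14.0 and 22.5 CPM at night and at 25.6, 29.7, 35.2 and 61.5 CPM, a log2 difference of -1.25 (adjusted p = 0.0345). Fbp1, the ecdysone-induced receptor through which the fat body takes up storage proteins, was at 0.293, 2.32 and 27.7 CPM at night and at 964, 4720, 185 and 14700 CPM, a log2 difference of -9.67 (adjusted p = 0.0107). In these genes every night library lay below each of the 4 day libraries.

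On the other side SPARC, at 1530 to 2340 CPM in those 4 day libraries, was higher at night by 1.06 on the log2 scale (adjusted p = 0.0278). Cbs, the cystathionine beta-synthase of transsulfuration, was at 192, 235 and 457 CPM at night and at 170, 76.9, 108 and 103 CPM, and it was higher by 1.27 (adjusted p = 0.0345). Pdha, a subunit of pyruvate dehydrogenase, was higher by 1.19 (adjusted p = 0.0278). With all 5 second-day libraries none of these genes passed, with log2 differences of -1.86 ± 0.34 for br and 0.91 ± 0.20 for SPARC. Omission of other libraries gave 9 genes without CT12 A, 3 without CT20 A and 2 without CT8 B. It gave 0 genes without CT12 B, CT16 A, CT16 B or CT20 B.

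The night times were also compared with each other. Among CT12, CT16 and CT20, 0 of 8917 genes (0%) differed at an adjusted p under 0.05 (smallest 0.101), but 1347 genes (15.1%) had an unadjusted p under 0.05. limma voom called 0 genes and DESeq2 601. Cyp304a1, a P450 gene, was at 133 and 94.5 CPM at CT12, at 11.8 and 17.8 CPM at CT16 and at 280 and 104 CPM at CT20 (adjusted p = 0.101). It was also at 7.12 CPM at CT28 A and at 240 and 218 CPM at CT32. Mtpbeta, the beta subunit of the mitochondrial trifunctional protein, was at 591 and 515 CPM at CT12, at 211 and 207 CPM at CT16 and at 841 and 473 CPM at CT20. Its day libraries ran from 207 to 567 CPM, so the CT16 pair lay at their lower edge.

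Mtpalpha and whd of the fatty acid oxidation list, chosen like Mtpbeta after their values were seen, had a like course. The courses of the other list members are not given. Mtpalpha was at 1060 and 897 CPM at CT12, at 414 and 348 CPM at CT16 and at 1130 and 693 CPM at CT20. whd, the carnitine palmitoyltransferase that admits fatty acids to mitochondria, was at 445 and 309, then 115 and 153, then 441 and 186 CPM. Of the 22 genes of the list, 12 had an unadjusted p under 0.05 among the night times, against 15.1% of all genes, and 0 passed adjustment. NaPi-III, a phosphate transporter gene chosen here after its values were seen, went another way, with 31.8 and 55.9 CPM at CT12, 32 and 60.3 CPM at CT16 and 2.90 and 2.79 CPM at CT20. Both CT20 libraries are among those with roX1 near the floor. Among the night times 50 genes passed without CT12 A, 33 without CT20 B, 19 without CT12 B and 4 without CT20 A.

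When each of the 9 times was a level of its own, so that spread was measured only between duplicates of a time, 16 genes were higher at night (0.179% of 8917) and 0 lower. Acer (log2 difference 0.78, adjusted p = 0.0470), gb (1.24, adjusted p = 0.0142) and jdp (0.72, adjusted p = 0.0290) were among them. Others were Cyp304a1 (1.83, adjusted p = 0.0128), the mitochondrial glutamine synthetase Gs1 (1.49, adjusted p = 0.0290) and the virus-induced gene vir-1 (1.32, adjusted p = 0.0131). This reading does not count the differences among day times or among night times as error. Without the 7 midgut-high libraries 31 of 9194 genes (0.337%) were lower at night and 0 higher in the linear model. They included mesh and Ssk, which encode septate junction proteins, and GATAe, a GATA factor. The omission left 3 night and 7 day libraries. In the same fit the midgut list had positive values in 10 of 11 genes, a median of 1.31 and 4 higher at an unadjusted p under 0.05. The libraries were kept by the sum of this same list, so its values here are conditioned on that choice and are only a description. Other tissue markers were lower at an unadjusted p under 0.05: 4 of 9 for the Malpighian tubule (median -1.90), 5 of 8 for the trachea (-2.60) and 6 of 11 for the cuticle (-2.57). Over all 9194 genes of this fit, 835 were lower and 304 higher at that p. Their part in the 31 calls was not tested.

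In w1118, fitted the same way on 6 night and 12 day libraries, 247 of 10532 genes (2.35%) were higher at night and 86 (0.817%) lower. Leading per0 genes had w1118 values on either side of that threshold. Acer was higher by 0.62 ± 0.16 (adjusted p = 0.0438), gb by 0.86 ± 0.22 (adjusted p = 0.0414), and emc was lower, at -0.56 ± 0.12 (adjusted p = 0.0159). In per0 the same genes came to 0.75 ± 0.16, 1.19 ± 0.28 and -0.58 ± 0.15. SPARC came to 0.54 ± 0.18 and fat-spondin to 0.53 ± 0.20 in w1118, and neither passed there. Jabba was higher in w1118 by 1.08 ± 0.15 (adjusted p = 0.00165) and ref(2)P by 0.89 ± 0.19 (adjusted p = 0.0178), against 0.84 ± 0.33 and 0.48 ± 0.17 in per0.

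Other genes had values near 0 in w1118: CARPB -0.04 ± 0.24, cu -0.01 ± 0.18, Cyp6d2 -0.02 ± 0.44, bowl 0.10 ± 0.42 and Sur-8 0.00 ± 0.15. None of these is shown to differ between the genotypes. In the test of the difference itself, 0 of 11077 genes (0%) passed (genotype by night interaction, smallest adjusted p = 0.386). At an unadjusted p under 0.05, 707 genes (6.38%) did. limma voom called 0 and DESeq2 27. The smallest p belonged to CARPB, with an interaction of 2.09 ± 0.47 (adjusted p = 0.386). CG5958, by, which encodes the focal adhesion protein tensin, the zinc finger factor Kr and CG6067 followed, all at an adjusted p of 0.386. by came to 0.08 ± 0.20 in per0 and to 1.05 ± 0.11 in w1118, and Kr to -0.00 ± 0.29 and -1.28 ± 0.14.

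Of the proteasome genes 10 of 31 had an unadjusted p under 0.05 for the interaction, against 6.38% of all genes. Their medians were 0.16 in per0 and -0.13 in w1118. The storage protein genes had 4 of 6 at that p, with medians of 1.61 and -0.52. In both lists 0 genes passed adjustment for the interaction, so no difference between the genotypes is shown. The number of w1118 genes called was 93 to 504 when single libraries were left out: omission of CT0 A gave 217, CT0 B 203, CT4 B 218, CT8 A 504, CT12 A 160, CT12 B 200, CT16 B 127, CT20 A 93 and CT20 B 220. The interaction count was 1 without per0 CT20 A and 2 without per0 CT28 A.

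**Figure D5:**
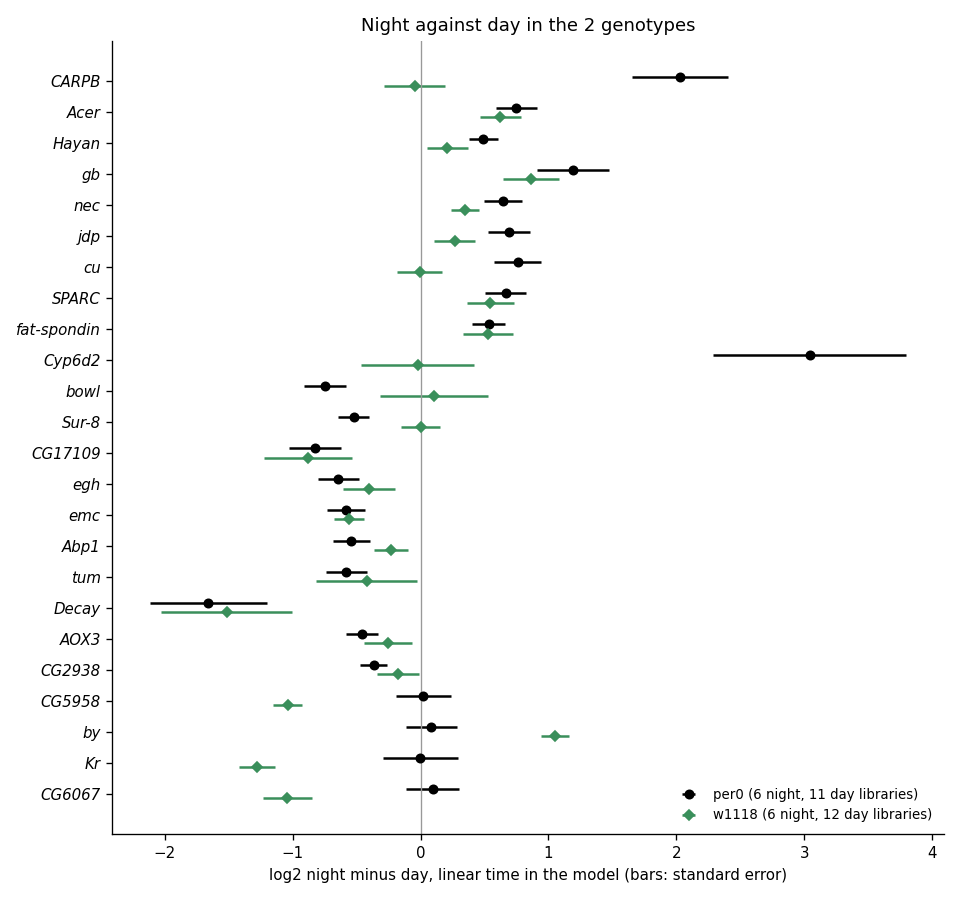
Log2 difference of night minus day with linear time in the model, for per0 (circles, 6 night and 11 day libraries) and w1118 (diamonds, 6 and 12), with bars of 1 standard error. The 10 genes with the smallest p in each direction in per0, among genes with a mean of at least 10 CPM, come first. They are followed by 4 with the smallest interaction p. Acer, gb, SPARC, fat-spondin, CG17109, emc and Decay have like values in both genotypes, CARPB and Cyp6d2 lie away from 0 in per0 alone, and no interaction passed adjustment.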

How the data were processed

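RNA-seq libraries of larval fat body were compared as gene counts. Raw counts of reads over 17610 genes were deposited as 1 table per genotype. The authors also deposited a normalized table, whose signal is the count over 1 factor per library (for 5560 per0 genes matched by symbol, 99.9% of the values were within 1% of that factor). The libraries were prepared with SMART-Seq v4, per the labels' protocols, a full-length kit with PCR amplification and without strand information or molecular identifiers, so overlapping and antisense genes cannot be told apart and detection floors cover counting error only. The genome build is not given in the sources used here. STAR 2.7.9a, featureCounts, edgeR and DESeq2 1.30.1 are named, with no role or order, per the submitters' processing notes.

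The counts went through edgeR 4.0.16 (R 4.3.3): TMM scaling, filterByExpr by night and day group, and the quasi-likelihood F test with Benjamini-Hochberg adjustment over all genes tested. Calls needed an adjusted p under 0.05, and every adjusted p in the text comes from this test unless another tool is named. The standard error is the log2 difference over the square root of F. The main model held night against day and CT in hours as a linear term. Further models held the first day, the night and the second day as levels, the 9 times as levels, and genotype by night with time within genotype. limma 3.58.1, DESeq2 1.42.0, other scalings, filters, covariates and omissions of libraries were alternatives. The normalized table entered 1 alternative, on log2(value + 1) with limma. The steps were also tested on simulated data.

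Named genes were the 10 with the smallest p in each direction among genes with a mean of at least 10 CPM. To these came up to 4 of each list by p, all tested clock genes and the 5 smallest interaction p. Among genes called against the first day, the 10 largest changes each way were taken. Genes outside these rules were taken from other fits or comparisons after their values were seen. Among them were vir-1, mesh, Ssk, GATAe, EcR, NaPi-III, Mtpbeta, Mtpalpha and whd. The groups, the 39 gene lists and these rules were chosen with earlier results of these data known. The fatty acid oxidation list holds Mcr, which is no enzyme of that pathway, and the amino acid list holds Glys, glycogen synthase; neither list was trimmed. A w1118 CT0 sample with a genotype tag naming per0 was kept as w1118 by its title. Duplicate columns carry letters that no label ties to replicate numbers, and whether duplicates are separate cultures is not stated, so p-values may measure only the spread between these pools. The CT28 library with w1118-like RNA was left out of the groups. Promoter and protein sequences were not used here.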

Additional observations from a re-analysis of the deposited data

Results flagged for a closer look

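The midgut markers of CT24 B summed to 10573 CPM, against 17.9 to 34.4 CPM in the other second-day libraries. On the log scale the gap to the nearest library was 0.899 of the group's range, above the critical ratio of 0.71 for 5 samples. It was the 1 library that stood apart among 93 combinations of a gene or marker sum with a group, where chance sets apart about 1 in 20. The second-day counts of the report are given with and without it.

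The omitted CT28 library held transcripts that the other per0 libraries lacked. nAChRalpha7 was at 14.8 CPM in it and at most at 1.0 CPM in the other 17. Hs3st-A, a heparan sulfate sulfotransferase gene, was at 18.3 CPM against at most 0.471 CPM, and mthl8, a receptor gene of the methuselah family, at 4.33 CPM against at most 0.377 CPM. In w1118 their medians were 35.0, 29.0 and 10.3 CPM.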

How the results depend on the processing

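The count of genes at night against both days stayed at 0 under other scalings, filters and covariates, under limma voom and without each library in turn. It was 64 with DESeq2, 1 with linear and squared time, 16 with the 9 times as levels and 31 without midgut-high libraries. Against the first day (184) it was 72 with the mixed library, 67 without midgut-high libraries, 2 with a roX covariate, 0 with roX1-positive libraries only, 786 with DESeq2 and 3 to 451 without single libraries. Against the second day (1) it was 12 with the mixed library, 3 with roX1-positive libraries, 2 without midgut-high libraries, 2 with limma voom, 548 with DESeq2 and 0 to 116 without single libraries. Among night times (0) it was 601 with DESeq2 and 0 to 50 without single libraries. In w1118 (333) it was 871 with DESeq2 and 93 to 504 without single libraries. The interaction (0) gave 27 with DESeq2, 1 with roX1-positive per0 libraries and 0 to 2 without single libraries. The causes were not tested. A replicate block by column letter gave 0 genes for both days, 172 for the first and 1 for the second. No label pairs the letters. Under it Peritrophin-15a (adjusted p = 0.172), CG13047, CG14400, CG17260, CG32266, CG43085, CG7715 and GstD2 (0.0524 to 0.0659) did not pass against the first day.

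Of 102 genes followed, 13 changed sign somewhere. tim was 0.0863 with limma voom, 1.63 with squared time, 0.19 with 9 levels, 0.0244 with summed duplicates, 0.18 with the replicate block, 0.31 with the roX covariate, 0.62 without midgut-high libraries and -0.70 to 0.78 without single times or libraries. sgg was 7.99e-04, 0.13, 0.0155 and 0.0734 in the first 4 of these, 1.33e-04 with the mixed library, 0.00275 with no time term, 0.0151 with the roX covariate and -0.0507 to 0.0750 in omissions. dco was -0.0274 unfiltered, -0.0294 at 10 CPM, -0.0327 with the mixed library, -0.0316 in the authors' table, -0.00306 with a testis covariate and -0.0788 to 0.0745 in omissions. CkIIbeta was -0.0126 unfiltered, -0.0258 at 10 CPM, -0.0190 in the authors' table and -0.0612 to 0.0661. CkIIalpha was 0.0283 with roX1-positive libraries, 0.0215 without midgut-high ones and -0.20 to 0.0365. Pdp1 was -0.25 and cwo -0.0994 with roX1-positive libraries, -0.33 to 0.34 and -0.0701 to 0.17 in omissions, and CCHa2 was -0.00168. thetaTry ran from -6.54 to 0.0525 in omissions. CARPB was -0.0879 and Fbp2 -1.71 with no time term, aly -0.41 with the mixed library and Atg8b -0.24 with the testis covariate.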
